A study of Mus musculus with 32 samples.

Results

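The genes described are the oxysterol binding protein-like genes of mouse muscle. All genes of the count table whose symbol begins with *Osbpl* were taken, which gave 10 of the 54838 genes (*Osbpl1a*, *Osbpl2*, *Osbpl3*, *Osbpl5*, *Osbpl6*, *Osbpl7*, *Osbpl8*, *Osbpl9*, *Osbpl10* and *Osbpl11*). The table held 12 genes whose symbol begins with *Osbp*, and the other two, *Osbp* and *Osbp2*, are given for reference. The family was chosen by the log2 fold changes of KO against WT in these same libraries, and all of its members were then taken by symbol, whether they had changed or not. The KO values are therefore a description of the 10 genes, and nothing is read from how many of them passed a threshold.

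Oxysterol binding proteins carry single lipids across the narrow gaps where the endoplasmic reticulum (ER) lies close to another membrane. Their shared lipid binding domain holds either a sterol, phosphatidylserine or the phosphoinositide PI4P, and several members trade PI4P made at the plasma membrane or Golgi for a lipid made in the ER. MTM1, the protein missing in the KO, is itself a phosphatase of phosphoinositides. In muscle the ER is the sarcoplasmic reticulum, which meets the plasma membrane at the T-tubules, and X-linked myotubular myopathy is known for disturbed T-tubules and triads.

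RNA was sequenced from skeletal muscle (tibialis anterior, TA, in the methods) of WT and *Mtm1* KO mice, both on the C57BL6/J background, at P1, P14, P21 and P35, with n=4 libraries in each of the 8 groups. The KO carries a germline deletion of exon 4 of *Mtm1*, so all tissues carry it, and the labels name no further allele or agent for either genotype. The line came from a 129S2PAS background. The labels give neither sex nor litter, while the paper writes the KO as *Mtm1 -/y*, a male genotype. P-values set a difference between groups against the spread between libraries within groups.

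Expected counts summed to 49321035 to 85631408 per library. CPM stands for counts relative to library size, scaled by TMM over all 32 libraries. *Mtm1* read 18.9 to 24.9 CPM in WT and 2.64 to 4.51 CPM in KO from P14 onward, and 5.26 to 6.02 against 2.32 to 3.91 CPM at P1, so no KO library overlapped its WT group. Muscle fibre markers summed to at least 18900 CPM in all libraries. Keratinocyte markers summed to 1731 to 6433 CPM at P1 and to no more than 6.28 CPM later, so that the P1 samples also held RNA of skin genes in both genotypes. A gene was called differentially expressed (a DEG) when edgeR gave more than a 1.5-fold change and an adjusted *P*-value under 0.01.

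All 10 genes passed the filter on low counts in every comparison. Levels of different genes were compared per kilobase (kb) of merged exons. In WT at P35 *Osbpl9*, whose protein sits at contacts of the ER with the Golgi, had the highest level with 18.6±1.59 CPM per kb (SD, n=4). It was followed by *Osbpl1a* at 10.04±1.27, *Osbpl6* at 8.44±0.783 and *Osbpl2* at 7.21±0.382 CPM per kb, a group in which each neighbour overlapped the next. *Osbpl11* at 5.75±0.233, *Osbpl5* at 4.42±0.395 and *Osbpl8* at 3.002±0.209 CPM per kb came next, each clear of its neighbours. *Osbpl10* (0.649±0.176), *Osbpl7* (0.575±0.0497) and *Osbpl3* (0.515±0.0467 CPM per kb) formed an overlapping group at the bottom. *Osbp*, the founding sterol and PI4P exchanger, stood above all of them at 35.5±1.47 CPM per kb, whereas *Osbp2* had only 3 to 28 counts in a WT library at this age.

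At P35 the order in KO differed for several genes. *Osbpl3* moved from last to place 7 with 2.49±0.110 CPM per kb, and *Osbpl6* from place 3 to place 8 with 1.80±0.418 CPM per kb. *Osbpl5* stood second at 7.30±0.634 CPM per kb, overlapping *Osbpl1a* behind it. *Osbpl9* remained first at 15.9±1.11 CPM per kb. With the longest transcript as the length, 2 of the 10 places in WT and 5 in KO shifted. *Osbpl5* then stood at place 4 in KO and *Osbpl6* at place 4 in WT, while *Osbpl3*, *Osbpl6* and *Osbpl9* kept theirs in KO.

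**Figure D1:**
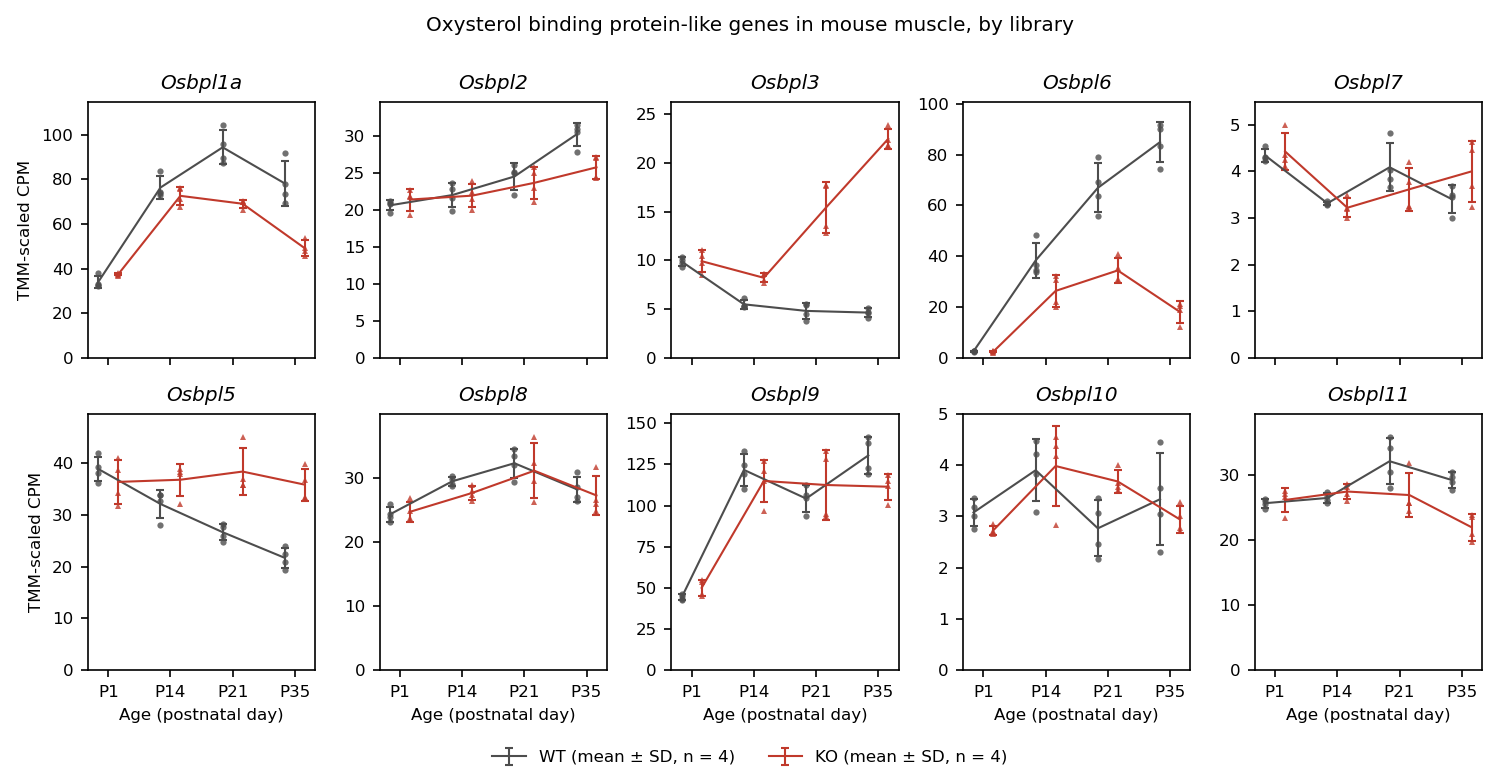
TMM-scaled CPM (y axis, linear from 0) of the 10 genes at the 4 ages (x axis, evenly spaced) in WT (dark circles) and KO (red triangles). Each symbol is 1 library and lines with bars are the mean ± SD of n=4. At P35 *Osbpl3* read 21.8 to 23.9 CPM in KO against 4.11 to 5.13 in WT, and *Osbpl6* 12.0 to 21.3 against 74.5 to 91.7 CPM.

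*Osbpl3*, *Osbpl6* and *Osbpl7* encode the members of a single subfamily, close in sequence and anchored to the ER through VAP proteins. ORP3, the product of *Osbpl3*, is known for work at contacts of the ER with the plasma membrane, R-Ras signaling and cell adhesion. *Osbpl6* is known from brain and muscle. Since the results turn on *Osbpl3* and *Osbpl6*, which moved in opposite directions, and on *Osbpl5*, the bases ahead of their start sites are shown. They were read from the RefSeq promoters of GRCm38.p6, 5′ to 3′ on the strand of the gene, as the 250 bases before the start site, with each CG dinucleotide in capitals. The first listed start is shown where RefSeq gives several (2 for *Osbpl6*, 3 for *Osbpl5*).
Osbpl3, chr6:50456171-50456420, minus strand: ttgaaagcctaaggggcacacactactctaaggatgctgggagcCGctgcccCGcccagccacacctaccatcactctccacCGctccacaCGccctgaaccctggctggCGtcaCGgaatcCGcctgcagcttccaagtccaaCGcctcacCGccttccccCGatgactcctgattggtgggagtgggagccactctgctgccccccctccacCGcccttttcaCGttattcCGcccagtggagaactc
Osbpl6, chr2:76406258-76406507, plus strand: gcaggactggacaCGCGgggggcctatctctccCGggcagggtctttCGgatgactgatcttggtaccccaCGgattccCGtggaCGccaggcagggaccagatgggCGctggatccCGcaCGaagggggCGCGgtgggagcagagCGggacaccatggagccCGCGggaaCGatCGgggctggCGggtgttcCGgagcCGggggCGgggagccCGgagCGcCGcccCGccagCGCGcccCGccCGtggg
Osbpl5, chr7:143757009-143757258, minus strand: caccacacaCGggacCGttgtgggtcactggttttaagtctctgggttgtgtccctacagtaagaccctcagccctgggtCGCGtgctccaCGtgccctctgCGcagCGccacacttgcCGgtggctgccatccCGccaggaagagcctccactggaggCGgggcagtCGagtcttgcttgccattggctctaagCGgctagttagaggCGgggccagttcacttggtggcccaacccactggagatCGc

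The full window of 300 bases, from 250 before to 50 after the start, held 14 CG dinucleotides for *Osbpl3*, 37 for *Osbpl6* and 16 for *Osbpl5*, beside a median of 7 over all 32851 promoters. Its GC content was 62.0%, 75.3% and 62.0%, with a median of 52.7% over all. The second start of *Osbpl6* had 8 CG dinucleotides and a GC content of 48%. The other starts of *Osbpl5* had 1 and 21, with 52% and 68% GC. Which start is used in this muscle was not tested. Of the 10 genes, 8 were searched, with 12 start sites. *Osbpl10* was not matched, and member windows on chromosome 18, where *Osbpl1a* lies, were left out. Both strands were searched for CAGCTG (the E-box of myogenic factors, in 16.3% of all promoters), TGANTCA (AP-1, 7.81%), TGTGGT (RUNX, 16.8%) and CACGTG (another E-box, 7.15%), whose matches may share bases. The windows of *Osbpl3* and *Osbpl6* held no match to the 4 motifs. The window of *Osbpl5* shown held TGTGGT beginning 249 bases and CACGTG beginning 161 bases before the start. Among the 12 windows, CAGCTG was found in 3, TGANTCA in 1, TGTGGT in 2 and CACGTG in 2.

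*Osbpl3* showed the largest difference between the genotypes among the 10 genes from P14 onward. The P1 libraries had 9.34, 9.74, 10.4 and 10.1 CPM (WT) and 9.73, 10.4, 8.48 and 11.1 CPM (KO), so the groups overlapped. At P14 WT had come down to 5.17, 6.17, 5.28 and 5.35 CPM, while KO read 8.63, 7.70, 8.58 and 7.95 CPM and no longer overlapped WT. At P21 the WT values were 3.83, 4.48, 5.46 and 5.51 CPM and the KO values 13.6, 17.7, 12.8 and 17.6 CPM. KO went on to 21.8, 21.8, 23.9 and 22.4 CPM at P35, when WT read 4.11, 4.59, 5.13 and 4.75 CPM. The KO mean at P35 was 2.27 times its mean at P1, and the WT mean 0.470 times.

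*Osbpl3* was a DEG at P21 (log2 fold change 1.69, SE 0.161, adjusted *P*=3.41e-04) and at P35 (2.30, SE 0.0906, adjusted *P*=1.83e-06, 4.92-fold), where it ranked second by *P*-value among 15595 genes. At P14 its log2 fold change of 0.58 (SE 0.0877, adjusted *P*=0.0784) did not pass. Same-numbered libraries deviated together at P14 (r=0.190 to 0.588), though no label ties them. A fit blocked by replicate number again gave 0.58 at P14, now with an adjusted *P*=0.00480, just short of 1.5-fold. The share of all genes with so small a value in the blocked fit is not given here. DESeq2 gave an adjusted *P*=2.26e-06 at P14, also short of 1.5-fold. Leaving out any 1 library kept *Osbpl3* a DEG at P21 and P35, with log2 fold changes of 1.57 to 1.76 and 2.24 to 2.35.

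*Osbpl6* had the lowest level of the 10 genes at P1 and the steepest course. At P1 WT read 2.32, 2.52, 2.67 and 2.69 CPM, overlapped by KO at 2.05, 2.72, 2.48 and 2.67 CPM. WT then read 34.4, 33.9, 48.5 and 36.7 CPM at P14, 78.9, 55.9, 63.5 and 69.4 CPM at P21 and 91.7, 74.5, 83.5 and 90.2 CPM at P35. The mean level in WT at P35 was 33.3 times that at P1.

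KO libraries were lower than WT at each of these later ages. *Osbpl6* read 20.2, 21.9, 30.8 and 32.4 CPM in KO at P14, all below the lowest WT library. KO read 35.5, 31.2, 30.1 and 40.8 CPM at P21 and 18.8, 12.0, 21.3 and 20.3 CPM at P35, so that the P35 mean was 0.525 times the P21 mean in KO. It was a DEG at P21 (log2 fold change -0.95, SE 0.120, adjusted *P*=0.00112) and P35 (-2.21, SE 0.168, adjusted *P*=5.31e-05, 4.63-fold lower). At P14 its log2 fold change was -0.55 (SE 0.176, adjusted *P*=0.624), and -0.56 with an adjusted *P*=0.00453 with the replicate block, short of 1.5-fold. Leaving out any 1 library gave -1.04 to -0.88 at P21 and -2.31 to -2.06 at P35, with the call kept.

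The third member of the subfamily, *Osbpl7*, stayed between 2.99 and 4.996 CPM in all libraries and differed by 0.26 (SE 0.150, adjusted *P*=0.193) at P35. The makeup of the subfamily can be given as shares of its summed CPM per kb, which do not depend on how libraries are scaled. *Osbpl3* made up 52.6±0.210% of the sum in WT muscle of P1 mice (SD, n=4), and its share then came down to 12.4±2.06%, 6.87±1.42% and 5.43±0.713% at the later ages. The KO shares over the same ages were 52.4±2.98%, 22.7±3.46%, 29.8±3.61% and 50.4±3.47%. The share of *Osbpl6* at P35 was 88.5±1.44% for WT but 35.8±5.88% for KO, and no libraries overlapped. At P35 the share of *Osbpl3* in KO thus lay near the P1 value, although the levels behind it did not.

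**Figure D2:**
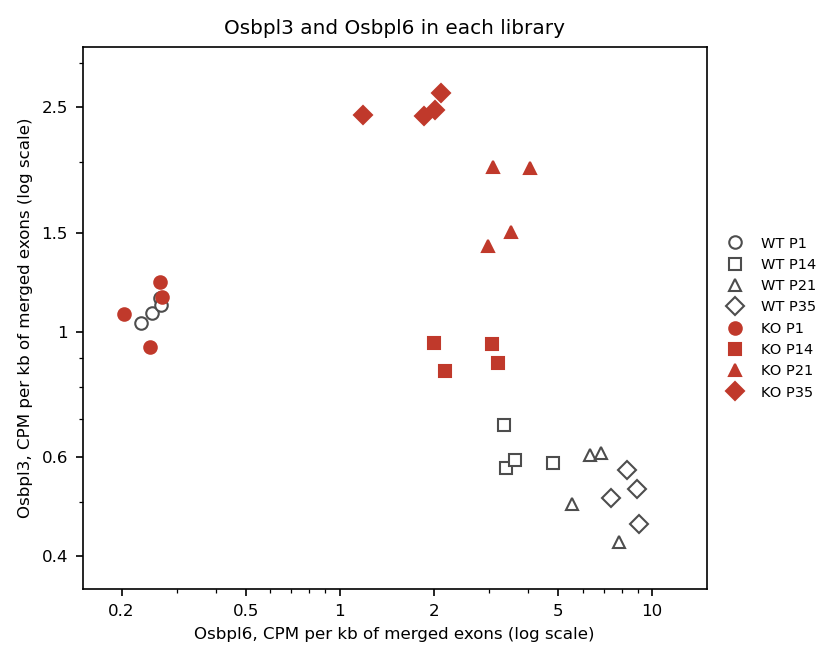
*Osbpl3* (y axis) against *Osbpl6* (x axis) in CPM per kb of merged exons, both on log scales; each symbol is 1 of 32 libraries, with WT open and KO filled red, and shapes for the 4 ages. WT libraries run from the P1 group toward high *Osbpl6* and low *Osbpl3*, whereas KO libraries from P14 on turn upward, and at P35 KO lies at 2.42 to 2.65 for *Osbpl3* and 1.19 to 2.11 for *Osbpl6*.

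*Osbpl5* and *Osbpl8* encode ORP5 and ORP8, which are fixed in the ER by a membrane anchor and trade phosphatidylserine for PI4P at the plasma membrane. The WT mean of *Osbpl5* was lower at each later age, while the KO mean stayed in 1 range. The WT libraries of P1 read 36.2, 39.4, 42.0 and 38.2 CPM and those of P14 32.8, 33.9, 33.9 and 28.1 CPM. They were at 27.6, 26.0, 24.9 and 28.3 CPM by P21, and by P35 at 23.9, 22.5, 19.5 and 20.9 CPM. The KO means were 36.4±4.25, 36.9±3.11, 38.4±4.48 and 35.9±3.12 CPM at the same ages. *Osbpl5* was a DEG at P35, where KO read 33.3, 33.6, 39.9 and 36.8 CPM (log2 fold change 0.75, SE 0.0892, adjusted *P*=3.01e-04). The groups did not overlap at P21 either, where KO was higher by 0.54 on the log2 scale (SE 0.0823, adjusted *P*=0.00258), short of 1.5-fold.

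*Osbpl8* read 26.5 to 30.8 CPM in WT and 24.9 to 31.7 CPM in KO at P35, which is -0.03 on the log2 scale (SE 0.0941, adjusted *P*=0.847). Its log2 fold changes at the other ages ran from -0.09 at P14 to 0.04 at P1, with no call. The ratio of *Osbpl5* to *Osbpl8* per length was 1.48±0.223 in WT and 2.55±0.424 in KO at P35, and 3.07±0.275 against 2.84±0.485 at P1.

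*Osbpl1a* and *Osbpl2* encode the sterol carriers ORP1 and ORP2. The long form of ORP1 senses cholesterol on late endosomes and lysosomes, and ORP2 carries cholesterol to the plasma membrane. The WT libraries of P35 had 69.3, 77.9, 92.0 and 73.4 CPM of *Osbpl1a*. All KO libraries lay lower, at 48.0, 53.9, 45.5 and 49.2 CPM. It was a DEG there (log2 fold change -0.64, SE 0.0996, adjusted *P*=0.00101). Without WT replicate 3, its highest library, the log2 fold change was -0.56 and fell short of 1.5-fold. At P21 *Osbpl1a* differed by -0.44 (SE 0.0647, adjusted *P*=0.00223), again short of 1.5-fold, with WT at 87.5 to 104.4 and KO at 66.4 to 70.3 CPM. *Osbpl2* read 27.9 to 31.5 CPM in WT and 24.2 to 27.2 CPM in KO at P35 (log2 fold change -0.20, SE 0.0738, adjusted *P*=0.0494) and was no DEG at any age.

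*Osbpl9*, *Osbpl10* and *Osbpl11* encode carriers of the ER, Golgi and endosomes. *Osbpl11* read 27.7 to 30.5 CPM in WT and 19.6 to 23.9 CPM in KO at P35 without overlap, and its difference of -0.39 on the log2 scale (SE 0.0826, adjusted *P*=0.00505) did not reach 1.5-fold. *Osbpl9* read 119.1 to 141.6 CPM in WT and 100.5 to 118.4 CPM in KO at P35 (-0.20, SE 0.0852, adjusted *P*=0.0821). Its exons share 633 bases with *Nrd1* on the opposite strand, which had up to 15343 counts in a library, and although the libraries were made with a directional kit, use of strand in counting is not given in the sources used here, so its level is uncertain. *Osbpl10* had 2.17 to 4.55 CPM in the libraries from P14 on, and differed by 0.43 (SE 0.145, adjusted *P*=0.0659) at P21 and -0.16 (SE 0.196, adjusted *P*=0.549) at P35. Of the reference genes, *Osbp* differed by -0.27 (SE 0.0807, adjusted *P*=0.0228) at P35, and *Osbp2* by 1.33 (SE 0.598, adjusted *P*=0.102) on 3 to 77 counts per library.

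**Figure D3:**
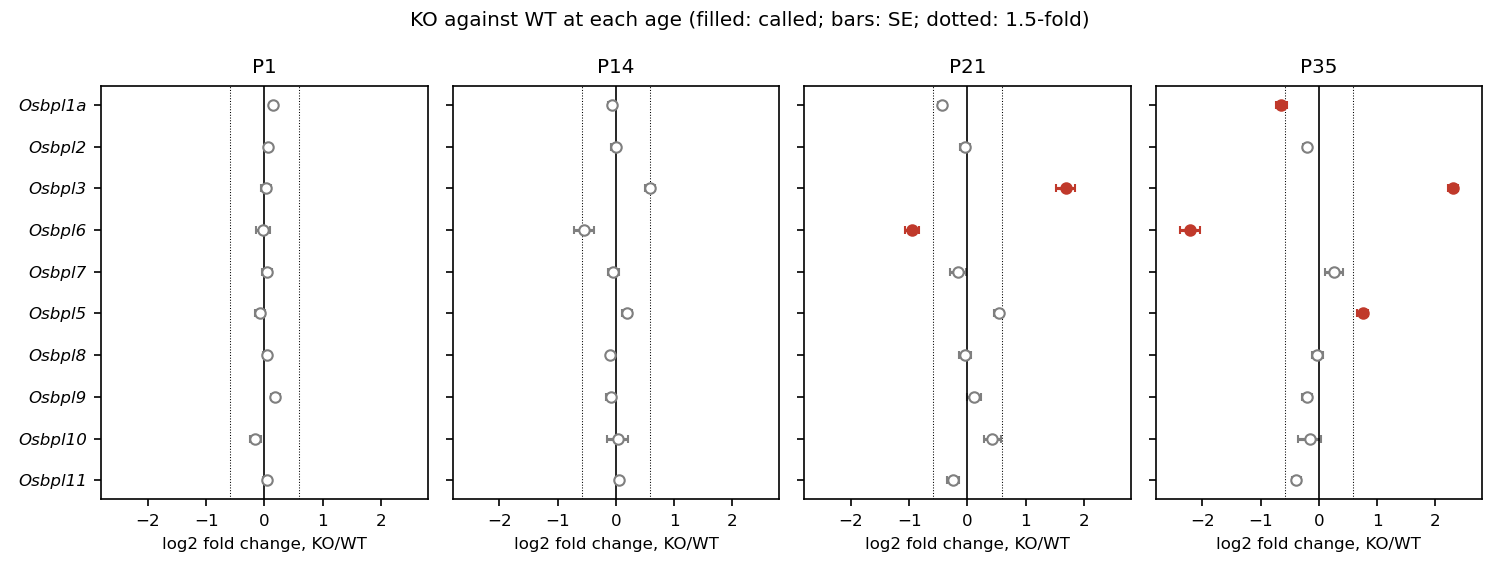
Log2 fold change of KO over WT (x axis) of the 10 genes (y axis) at each age, with SE bars, n=4 libraries per genotype. Filled red points were DEGs and dotted lines mark 1.5-fold; at P1 all 10 lie between -0.16 and 0.19, and at P35 they run from -2.21 to 2.30.

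In counts, 0 of the 10 genes were DEGs at P1 (0.0442% of all genes tested) and 0 at P14 (0.0318%). There were 2 at P21 (1 higher and 1 lower) beside 4.67% of all genes (3.18% higher and 1.5% lower), and 4 at P35 (2 higher and 2 lower) beside 16% (8.49% higher and 7.52% lower). In edgeR 2 of the 10 had an unadjusted *P*-value under 0.05 at P1 and 3 at P14, and DESeq2 also called 0 at both ages. For scale, *Osbpl1a* with an unadjusted *P*=0.0451 in edgeR at P1 ranked 1837 of 18100 genes. At P14 *Osbpl5* with an unadjusted *P*=0.0483 in edgeR ranked 1045 of 15728 genes. WT and KO libraries did not overlap for 0, 2, 5 and 7 of the 10 genes at the 4 ages, where 8.62%, 4.84%, 24.7% and 39.6% of all genes did not. The median log2 fold change of the 10 genes was -0.18 at P35, and 0.04 over all genes tested.

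The KO effect itself was compared between ages in a fit of all 32 libraries, again as a description of the same values. For *Osbpl3* it was greater at P21 than at P14 by 1.1 on the log2 scale (SE 0.157, adjusted *P*=2.19e-04), the only one of the 10 genes past an adjusted *P*-value of 0.01 (0.425% of all genes). From P21 to P35 it changed for *Osbpl6* alone by that threshold (-1.27, SE 0.225, adjusted *P*=0.00250; 0.463% of all genes), and in a fit of only the 16 libraries of these ages the adjusted *P*-value was 0.0195. *Osbpl3* differed over this step by 0.60 (SE 0.158, adjusted *P*=0.0409). From P14 to P35 it changed for 5 genes, with 8.53% of all genes. These were *Osbpl3* (1.69), *Osbpl6* (-1.69), *Osbpl1a* (-0.60), *Osbpl5* (0.53) and *Osbpl11* (-0.47). The calls of *Osbpl5* and *Osbpl11* were lost in 8 and 6 of the 16 fits that left out 1 library, where the count of called genes was 3 to 5.

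Several members differed between ages in WT muscle. From P1 to P14, 4 of the 10 genes were DEGs, with 55.1% of all genes. *Osbpl6* rose by 3.90 (SE 0.132, adjusted *P*=3.0e-08), *Osbpl9* by 1.45 (SE 0.0705, adjusted *P*=1.52e-07) and *Osbpl1a* by 1.15 (SE 0.0744, adjusted *P*=6.63e-07), and *Osbpl3* fell by 0.86 (SE 0.0808, adjusted *P*=7.27e-06) on the log2 scale. *Osbp* rose by 0.87 (SE 0.0635, adjusted *P*=1.42e-06). The makeup of the samples moved over the same step. In WT the muscle fibre markers summed to 27790 to 36070 CPM at P1 and 137600 to 181200 CPM at P14, and the markers of satellite cells and regenerating fibres to 15940 to 20840 and 164.5 to 730.9 CPM. Fibroblast markers (12080 to 16140 against 4074 to 8044 CPM), adipocyte markers (48.8 to 143.3 against 5.77 to 16.7 CPM) and the keratinocyte markers given above were lower at P14 too. The part of these cells in the values was not tested. *Osbpl5* (-0.29), *Osbpl7* (-0.40) and *Osbpl8* (0.27) had adjusted *P*-values under 0.01 with smaller changes. From P14 to P21 *Osbpl6* rose by 0.79 (SE 0.137, adjusted *P*=0.00423), the 1 DEG of the 10 genes, with 5.53% of all genes. This call was lost without WT replicate 1 or 2 of P14 or replicate 1 or 4 of P21, which gave 0.72 to 0.79. From P21 to P35 none of the 10 genes was a DEG (2.45% of all genes). Over this step *Osbpl2* (0.29), *Osbpl5* (-0.31) and *Osbpl9* (0.31) had adjusted *P*-values under 0.05 in edgeR (17.7% of all genes), and 6 had an unadjusted *P*-value under 0.05, while DESeq2 called 0 too. These comparisons share libraries with the KO comparisons of the same age.

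These values are relative to the other genes of a library. Scaling by library totals instead of TMM moved the median over all genes tested to 0.20 at P21 and 0.44 at P35, and to -0.85 from P1 to P14 in WT. On that scale the DEGs among all genes were 1052 higher and 105 lower at P21, beside 482 and 227 with TMM. At P35 they were 4350 higher and 326 lower, beside 1324 and 1172 with TMM. The DEGs among the 10 genes were 3 higher and 1 lower at both P21 and P35. *Osbpl5* (0.73) and *Osbpl10* (0.62) were added at P21 and *Osbpl7* (0.66) at P35. *Osbpl3*, *Osbpl5* and *Osbpl6* kept direction and call at P35, *Osbpl1a* differed by -0.24 and was no DEG, and *Osbpl2* (0.20) and *Osbpl11* (0.02) changed sign. From P1 to P14 in WT the DEGs of the 10 genes were then 2 higher and 5 lower, beside 3 and 1 with TMM. Over all genes 1598 were higher and 10025 lower on the scale of library totals at this step. *Osbpl8* (-0.50) and *Osbpl10* (-0.42) changed sign and *Osbpl1a* (0.38) was no DEG, whereas *Osbpl3*, *Osbpl6* and *Osbpl9* kept direction and call.

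Muscle is a mix of cells, and in bulk RNA fewer cells of a type and less RNA per cell cannot be told apart. Along with the members, markers of other cell types moved. Of 7 macrophage and leukocyte markers, 3 were higher at P21 (*Cd68*, *C1qa* and *Lyz2*) and 5 at P35, and their sum was 60.2 to 83.1 CPM in WT against 100.3 to 130.3 CPM in KO at P21 and 75.6 to 90.2 against 113.9 to 179.0 CPM at P35. Of 6 markers of satellite cells and regenerating fibres, *Myog* was higher and *Pax7* lower at P21, and at P35 *Myog*, *Myh3* and *Myh8* were higher and *Pax7* lower. Their sum at P35 was 51.3 to 68.1 CPM in WT and 181.3 to 281.1 CPM in KO. Of 5 adipocyte markers, 3 were higher at P35 (5.21 to 12.2 against 15.8 to 52.6 CPM). At P35 2 of 5 endothelial markers were lower (310.5 to 577.6 against 272.3 to 339.0 CPM in sum), as were *Acta1* of 7 fibre markers and *Rgs5* of 5 pericyte and smooth muscle markers. All 7 fibre markers had log2 fold changes below 0, from -0.76 to -0.37, and their sum did not overlap (102300 to 171600 CPM in WT and 67290 to 101600 CPM in KO). Nor did the pericyte and smooth muscle sum (1007 to 1379 against 803.2 to 915.6 CPM). No call was made by edgeR among the fibroblast, Schwann, keratinocyte and erythroid markers over the 4 ages, where 9 of 24, 8 of 20, 0 of 8 and 5 of 20 tests had an unadjusted *P*-value under 0.05. At P35 all 5 Schwann markers were among these, with log2 fold changes of 1.34 to 1.71 (adjusted *P*=0.0157 to 0.0925) and sums of 47.5 to 398.4 CPM in WT and 207.9 to 872.5 CPM in KO, which overlapped. No marker was at 0 in all libraries of a group at P35. The part of these cell types in the values of the 10 genes was not tested.

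To place the 10 genes in their pathway, 3 lists were followed. The lists were written with earlier results of these data known. The first held 40 other genes of membrane contact sites and of PI4P, among them the VAP receptors, phosphatidylinositol transfer proteins and bridge-like lipid carriers. At P21 1 of 39 tested (2.56%, beside 4.67% of all genes) was a DEG, *Pitpnc1*, a phosphatidylinositol transfer protein, which fell by 0.71 (SE 0.0745, adjusted *P*=5.47e-04) on the log2 scale. At P35 11 of 39 (28.2%) were DEGs, 1 higher and 10 lower, beside 16% of all genes (8.49% higher and 7.52% lower). The median log2 fold change was -0.24 beside 0.04 for all genes tested. The 4 with the smallest adjusted *P*-values were *Tex2*, a lipid carrier of ER contacts (-0.85, SE 0.0749), *Pitpnc1* (-1.28, SE 0.147), the autophagy lipid carrier *Atg2a* (-0.73, SE 0.0945) and the bridge-like carrier *Vps13b* (-0.79, SE 0.108), with adjusted *P*-values of 1.02e-04, 2.53e-04, 4.39e-04 and 5.67e-04. Among genes named after their values were seen, the higher one was the PI4P-making kinase *Pi4k2b* (0.61, SE 0.144, adjusted *P*=0.00852), and *Vps13a*, *Vps13c* and *Vps13d* were among the lower genes as well, so all 4 *Vps13* genes fell. With library totals 5 of the list were DEGs, 4 higher and 1 lower, although each of the 11 genes kept its direction.

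The second list held 34 genes of sterol synthesis and uptake. At P21 0 of 34 were DEGs by edgeR, 5 had an unadjusted and 1 an adjusted *P*-value under 0.05 (the latter in 21% of all genes), and DESeq2 called 0. For scale, *Osbpl11* with an unadjusted *P*=0.0350 in edgeR ranked 4760 of 15179 genes at P21. At P35 4 of 33 (12.1%, beside 16% of all genes) were DEGs. *Mvd* (0.97, SE 0.115, adjusted *P*=3.02e-04), *Msmo1* (0.66, SE 0.106, adjusted *P*=0.00121) and *Sqle* (0.90, SE 0.183, adjusted *P*=0.00384), all enzymes of cholesterol synthesis, rose. *Fdft1*, which makes squalene, fell by 0.60 (SE 0.126, adjusted *P*=0.00486). The median of the list was 0.05. Without KO replicate 3 or 4 of P35 the count was 2, and with library totals it was 10, all higher.

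The third list held 22 genes that make or sense oxysterols, including targets of the oxysterol receptor LXR. At P21 1 of 20 (5%, beside 4.67% of all genes) was a DEG, *Hsd3b7*, an enzyme of bile acid synthesis from oxysterols (0.61, SE 0.114, adjusted *P*=0.00632). That call was lost without any 1 of 7 of the 8 libraries. At P35 5 of 22 (22.7%, beside 16% of all genes) were DEGs, 4 higher and 1 lower, with a median of -0.17 over the list. *Hsd3b7* (0.82, SE 0.0879, adjusted *P*=1.96e-04), *Apoe* (0.86, SE 0.163, adjusted *P*=0.00285) and *Apoc1* (2.88, SE 0.565, adjusted *P*=0.00334), the last pair apolipoproteins that macrophages also express, rose. *Nceh1*, a hydrolase of cholesterol esters, fell by 0.96 (SE 0.223, adjusted *P*=0.00752). The fifth, *Scd1*, named after its values were seen, is a fatty acid desaturase abundant in adipocytes (1.81, SE 0.435, adjusted *P*=0.00901). The count at P35 was 2 without WT replicate 2, 1 without WT replicate 4, and 3 without KO replicate 1 or 3. With library totals it was 6, all higher. The macrophage and adipocyte marker sums given above moved along with these genes, and their part was not tested.

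**Figure D4:**
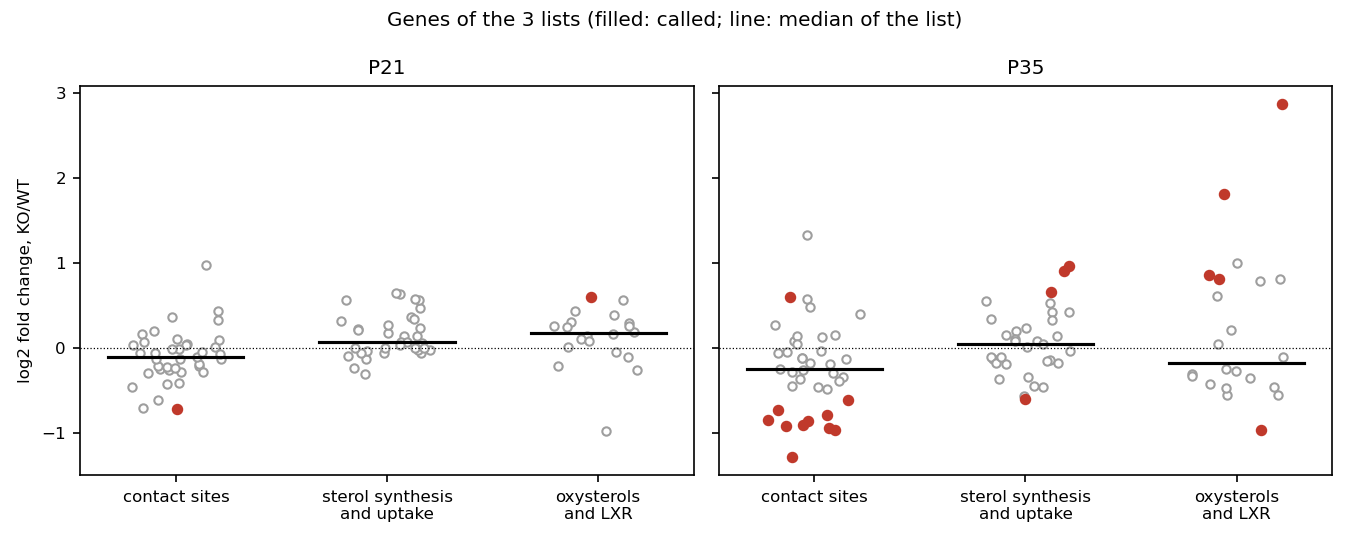
Log2 fold change of KO over WT (y axis) for the genes of the 3 lists (x axis) at P21 and P35; each point is 1 gene, filled red when a DEG, spread sideways only to be seen, and the line is the median of the list. At P35 the contact site list had 10 DEGs lower and 1 higher, the sterol list 3 higher and 1 lower, and the oxysterol and LXR list 4 higher and 1 lower.

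Finally, the genes with the pattern most like that of *Osbpl3* and *Osbpl6* were found by Pearson's r of log2 CPM over the 32 libraries among 14755 genes. The libraries share age and genotype, so the coefficients are a description. *Osbpl3* was nearest to *Klf5*, a transcription factor (r=0.974), *Tec*, a tyrosine kinase (r=0.960), and *Anxa4*, a lipid-binding annexin (r=0.955). *Osbpl6* was nearest to *Entpd4*, a nucleotide phosphatase of the Golgi and lysosome (r=0.992), *Polr2m*, a subunit of RNA polymerase II (r=0.989), and the transcript *1700020I14Rik* (r=0.988). These last 3 had log2 fold changes of -0.88, -0.50 and -1.53 at P35, and the first 3 of 2.83, 1.75 and 2.48. By Spearman's rho, 0 of the 3 genes named for *Osbpl6* were among its top 3.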

How the data were processed

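RNA of skeletal muscle was measured in 32 libraries, in groups taken from the labels. Per the methods, the authors aligned paired-end reads to GRCm38 with STAR. They deposited expected counts per gene, as RSEM makes, with no scaling between libraries, and the submitters' processing notes name STAR 2.6.1 and RSEM 1.2.22. The methods name HTSeq as the counter. Libraries were made with a directional kit, so the reads keep their strand. Annotation release and use of strand in counting are not given in the sources used here. Gene symbols, positions and lengths come from GENCODE M21, which gave a symbol to 54809 of the 54838 genes.

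The expected counts were rounded and fitted in R 4.3.3 with edgeR 4.0.16 (filterByExpr, TMM, glmQLFit, glmQLFTest, two-sided), pairwise within an age or between ages of WT, with *P*-values adjusted by Benjamini-Hochberg over the genes of each fit. KO effects at different ages were compared as an interaction over all 32 libraries. The SE is the log2 fold change over the square root of the F statistic. DEGs changed by over 1.5-fold (an absolute log2 fold change over 0.585) at an adjusted *P*-value under 0.01, the latter alone for interactions. The procedure was tested on simulated data. CPM on the log2 scale used a prior count of 2 over 18583 genes. Python 3.11.15, pandas 2.3.3 and matplotlib 3.10.9 made tables and figures.

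The 10 genes, the pathway lists, the markers and the motifs were chosen with earlier results of these data known. By rule the text names all 10 genes, *Osbp*, *Osbp2* and *Mtm1*, up to 4 DEGs per list and age with the smallest adjusted *P*-values, and the 3 genes most like *Osbpl3* and *Osbpl6*. List genes outside this rule are marked as named after their values were seen. Replicate numbers in the labels are shared between genotypes but no label ties them to a litter or day. At P14 same-numbered libraries deviated together (r=0.252, 0.290, 0.190 and 0.588), so the blocked values are given for P14. WT replicate 2 of P14 nevertheless went best with KO replicate 1. The mean r was -0.14 at P1, 0.0735 at P21 and 0.0487 at P35. No pair of replicates agreed within sampling noise. Alternatives were DESeq2 1.42.0, size factors of DESeq2, library totals, no filter or at least 10 counts, unrounded counts, all libraries in 1 fit, adjusted deviances, mitochondrial genes left out, a replicate block, an adjusted *P*-value under 0.05, another length, Spearman's rho and leaving out each library. Library totals of 49321035 to 85631408 set the counting error, which is only part of the spread between libraries. Reads carry no molecular identifiers.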

Additional observations from a re-analysis of the deposited data

Results flagged for a closer look

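Among 80 groups of 4 libraries (10 genes in 8 groups), 5 held a library far from the other three by Dixon's ratio, where chance gives about 5%. *Osbpl1a* read 83.7 CPM in WT replicate 4 of P14 (lowest of the group 73.2) and 66.4 CPM in KO replicate 3 of P21 (highest 70.3). *Osbpl5* read 32.2 CPM in KO replicate 4 of P14 (highest 38.9) and 45.1 CPM in KO replicate 1 of P21 (lowest 35.8). *Osbpl11* read 31.9 CPM in that same KO replicate 1 of P21 (lowest 24.5).

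The KO effect differed between ages by the interaction test for *Osbpl3* from P14 to P21 (1.1 on the log2 scale) and for *Osbpl6* from P21 to P35 (-1.27). Between P14 and P35 it differed for *Osbpl3* (1.69, SE 0.157, adjusted *P*=5.08e-08), *Osbpl6* (-1.69, SE 0.226, adjusted *P*=1.12e-05), *Osbpl1a* (-0.60, SE 0.107, adjusted *P*=3.32e-04), *Osbpl5* (0.53, SE 0.129, adjusted *P*=0.00529) and *Osbpl11* (-0.47, SE 0.112, adjusted *P*=0.00467).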

How the results depend on the processing

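Values of single members with an adjusted *P*-value under 0.05 were recomputed for 33 pairs of gene and comparison. Of 240 values under alternatives other than leaving out a library, 212 kept direction and call, 6 lost the call, 18 gained it and 4 changed sign. For each of the 33 pairs, 1 of these values was the looser cutoff of an adjusted *P*-value under 0.05. All pairs were chosen for passing that cutoff, so these outcomes were fixed in advance and say nothing about robustness. At that cutoff each pair with no call in the main fit was counted among the 18 that gained it. Of 328 values that left out a library, 309 kept both, 19 lost the call and 0 changed sign. Pairs with no call in the main fit had none to lose, and all their values were counted among the 309. The sign changes came with library totals, in *Osbpl2* (0.20) and *Osbpl11* (0.017) at P35 and in *Osbpl8* (-0.50) and *Osbpl10* (-0.42) from P1 to P14 in WT. The cause was not tested.

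With library totals the number of the 10 genes called was 4 at P21, 7 from P1 to P14 in WT and 3 for the KO effect from P14 to P35, and the lists had 1 sterol gene at P21 and 5 contact site and 10 sterol genes at P35. The DEGs over all genes on this scale are given above for P21, P35 and P1 to P14 in WT. With an adjusted *P*-value under 0.05 and no limit on the fold change, 4 of the 10 genes passed at P21 (21% of all genes) and 6 at P35. Over the successive age steps in WT 8, 4 and 3 passed, with 17.7% of all genes at the last step. The KO effect from P21 to P35 then passed for 2. The lists then held 5 contact site, 1 sterol and 4 oxysterol and LXR genes at P21, and 21, 12 and 10 at P35. The share of all genes at this cutoff is not given here for P35, the earlier WT steps or the KO effect. Nothing is read from these counts. DESeq2 called 3 contact site and 2 oxysterol and LXR genes at P21. With only the 16 libraries of P21 and P35, 0 members passed for the KO effect between them. The replicate block gave 2 contact site and 0 oxysterol and LXR genes at P21, and 0 members from P14 to P21 in WT (*Osbpl6* 0.80, adjusted *P*=0.0165), and changed no other call of the members or lists. Pairing by number was not met at P1, P21 or P35.

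Leaving out each library gave 3 to 4 members at P35, 0 to 1 from P14 to P21 in WT, and 3 to 5 for the KO effect from P14 to P35. The lists had 1 to 2 contact site, 0 to 1 sterol and 0 to 1 oxysterol and LXR genes at P21, and 8 to 11, 2 to 6 and 1 to 4 at P35. With the longest transcript as the length, levels in WT at P35 ran from 0.715 (*Osbpl3*) to 41.6 CPM per kb (*Osbpl9*), and with library totals from 0.383 to 13.8. Spearman's rho shared 0 of the 3 genes with Pearson's r for *Osbpl6*. The SE of a member's log2 fold change at P35 ran from 0.0738 (*Osbpl2*) to 0.196 (*Osbpl10*), and *Osbp2* rests on too few counts for a level.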
